A study of Mus musculus with 12 samples.

Results

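A set of 10 genes of lipoprotein assembly and plasma transport was followed in mouse embryos of stage E7.25, across 4 cell types obtained by sorting. They were the apolipoprotein genes Apob, Apoa1, Apoa4, Apoe and Apom, the lipid transfer gene Mttp, and Afp, Ttr, Rbp4 and Trf, which encode proteins secreted into plasma. The genes were listed by symbol, with their levels in these libraries already known, and all 10 of the 10 symbols were found among the 38924 Ensembl genes counted. They were chosen for a level that differs between the types, so their levels are given here as a description and no test on them is read as evidence.

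The 12 libraries came from a line that carried a Cre recombinase driven by Foxa2 (Foxa2Cre) and the Cre-activated YFP reporter Rosa26-YFP, so that a cell which once expressed the Cre, and its descendants, fluoresce. All 4 types carried both alleles, per the labels. They were YFP+ cardiac mesoderm, named ventricular in the labels, YFP- cardiac mesoderm, named non-ventricular, EPCAM+ endoderm and KDR+ hematopoietic mesoderm, with 3 libraries of each. The labels do not say whether the libraries of a type came from separate embryos or pools, so any p-value below measures the spread between these libraries only.

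Apolipoproteins are the protein part of the particles that carry lipid in blood. The large apolipoprotein B is loaded with triglyceride inside the cell by the microsomal triglyceride transfer protein, the product of Mttp, while smaller apolipoproteins such as A1, A4, E and M ride on the finished particles and serve as enzyme cofactors or receptor ligands. Alpha-fetoprotein, transthyretin, retinol-binding protein 4 and transferrin carry fatty acids, thyroid hormone, retinol and iron. Before the liver and the yolk sac circulation exist, the visceral endoderm, the layer that surrounds the early embryo, is the known source of most of these proteins.

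Gene counts totalled 4472800 to 7888631 reads per library, so that the floor of 3 reads used here was 0.355 to 0.720 CPM, the library-size scaled count (TMM scaling) used as the level throughout. Intervals and floors cover counting error only. Each sort gene was highest in the type labelled with it. Epcam was at 203 to 239 CPM in endoderm and at 1.04 to 68.7 CPM in mesoderm. Kdr was at 662 to 962 CPM in hematopoietic mesoderm and at 4.77 to 16.3 CPM in endoderm. It did not mark the hematopoietic type alone, at 442 to 620 CPM in the cardiac fractions. Pdgfra, a cardiac mesoderm marker, was at 203 to 386 CPM in those fractions and at 1.92 to 48.1 CPM in hematopoietic mesoderm. In endoderm the 8 visceral endoderm markers summed to 3293, 1124 and 2029 CPM and the 8 definitive endoderm markers, with Pyy at 0, to 1199, 987 and 954 CPM. Genes listed for both kinds of endoderm were thus read in each of these libraries. Whether cells of both kinds were present was not tested. Of the definitive list, Cxcr4 was lower in endoderm, at 37.4 to 49.8 CPM, than in cardiac mesoderm, at 59.3 to 162 CPM. The 5 epiblast markers also summed to 929 to 976 CPM in endoderm, against 298 to 478 CPM in mesoderm. Most of that sum was Dnmt3b, at 723 to 807 CPM in endoderm and 289 to 471 CPM in mesoderm. Other epiblast markers were lower but stood further apart. Utf1 was at 108 to 116 CPM in endoderm and 0 to 19.7 CPM in mesoderm. Nanog was at 30.9 to 50.3 against 0 to 26.0 CPM, and Sox2 at 7.91 to 16.4 against 0 to 1.67 CPM. Pou5f1 overlapped, at 22.8 to 34.9 CPM in endoderm and 0 to 26.7 CPM in mesoderm. The part of these markers in the results was not tested. In bulk RNA, fewer cells of a type and less RNA per cell cannot be told apart.

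Promoters of 3 genes are shown because their genes were among the most abundant of the 10 in endoderm and at a low share of that level in mesoderm. RefSeq promoters (GRCm38.p6) were held for 8 of the 10 genes, in 11 entries. The stretches are on the plus strand and stop before the first annotated transcript base: chr12:7977427-7977647 for Apob, chr9:46228380-46228579 for Apoa1 and chr5:90490464-90490713 for Afp. Capitals mark 3 motifs, searched on both strands. One is the forkhead motif TGTTTGC, which in the Apob promoter lies on the minus strand and so appears as its reverse complement. Another is the core promoter element known as the TATA box, TATAAA. The third, in the Apob promoter only and again on the minus strand, is the GATA factor motif GATAAG.
Apob: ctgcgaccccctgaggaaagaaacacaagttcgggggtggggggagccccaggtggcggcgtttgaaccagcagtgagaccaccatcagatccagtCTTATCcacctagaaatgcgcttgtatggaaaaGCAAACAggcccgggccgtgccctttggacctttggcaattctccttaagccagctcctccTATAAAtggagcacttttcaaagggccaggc
Apoa1: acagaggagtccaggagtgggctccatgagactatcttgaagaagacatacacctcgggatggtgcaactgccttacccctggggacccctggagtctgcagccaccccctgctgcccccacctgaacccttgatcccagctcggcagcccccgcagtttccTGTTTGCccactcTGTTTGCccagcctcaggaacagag
Afp: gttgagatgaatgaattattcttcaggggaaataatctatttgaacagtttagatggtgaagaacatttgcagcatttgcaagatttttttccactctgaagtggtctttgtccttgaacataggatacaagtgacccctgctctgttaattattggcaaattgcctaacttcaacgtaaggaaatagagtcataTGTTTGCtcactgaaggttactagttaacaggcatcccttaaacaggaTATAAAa
The forkhead letters TGTTTGC stood in all 3 of these promoters and in none of the others held for the 10 genes. Of 32851 RefSeq promoters, 4.3% hold them within 250 bases upstream on either strand. TATAAA, found for Apob, Afp, Apoe and Rbp4, stands in 12.4% of promoters, and GATAAG, found for Apob, in 6.55%. The HNF4 motif searched, CAAAGTCCA, stood in 0.384% of all promoters and in none of the 11 entries. The related forkhead letters TGTTTAC (3.17% of promoters) were found for Rbp4 and TATTTAC (2.73%) for Mttp. The motifs overlap no other motif searched except in Apoe, where TATAAA was matched on both strands at nearly the same place. They were chosen with the levels known, and a match describes letters, not binding.

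Apob was the most abundant of the 10 genes in endoderm. It was at 2512, 1029.5 and 1476 CPM in the 3 endoderm libraries. In YFP+ cardiac mesoderm it was at 8.72, 59.6 and 28.8 CPM, in YFP- cardiac mesoderm at 4.18, 3.21 and 3.03 CPM, and in hematopoietic mesoderm at 6.72, 4.49 and 4.81 CPM. Every endoderm library lay above every mesoderm library, and every YFP+ library lay above every YFP- and every hematopoietic library. The fitted log2 difference of endoderm was 5.69 ± 0.58 (SE) against YFP+ cardiac mesoderm, 8.91 ± 0.68 against YFP- cardiac mesoderm and 8.30 ± 0.66 against hematopoietic mesoderm.

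Apoa1, the main protein of high-density lipoprotein, lies at chr9:46228580-46230466 (GRCm38, plus strand), beside Apoa4 at chr9:46240696-46243459. It was at 195, 84.3 and 122 CPM in endoderm, at 4.57, 0.182 and 1.66 CPM in YFP+ cardiac mesoderm, at 0.668, 0.279 and 0.433 CPM in YFP- cardiac mesoderm, and at 0, 0.173 and 0.837 CPM in hematopoietic mesoderm. The endoderm libraries stood apart from all others, whereas the mesoderm types overlapped. The log2 difference of endoderm was 5.97 ± 1.12 against YFP+ and 8.14 ± 1.25 against YFP- cardiac mesoderm, and 8.54 ± 1.29 against hematopoietic mesoderm.

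Apoa4, a triglyceride-rich particle component, was much lower. It was at 19.5, 1.29 and 12.9 CPM in endoderm, which was 123, 10 and 109 reads. In mesoderm it had 1 read in a YFP+ library, 1 read in a hematopoietic library and none in the other 7. Its exons overlap 2 predicted genes on the opposite strand, of which Gm10680 had no read in any library, and it did not pass the expression filter.

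Apom, a carrier of sphingosine-1-phosphate on high-density lipoprotein, was at 39.9, 9.02 and 17.9 CPM in endoderm. It was at 0 to 0.415 CPM in YFP+ cardiac mesoderm and at 1.17, 0.279 and 0.866 CPM in YFP- cardiac mesoderm. No read was seen in the 3 hematopoietic libraries, which puts endoderm at least 35.8-fold higher against the floor per library. The endoderm libraries lay above all others, with a range among themselves that was wide.

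Apoe, the ligand of lipoprotein receptors that many cell types make, did not share this separation. It was at 173, 73.5 and 110 CPM in endoderm, 50.9, 106 and 25.5 CPM in YFP+ cardiac mesoderm, 58.6, 53.1 and 42.9 CPM in YFP- cardiac mesoderm, and 45.1, 69.6 and 129 CPM in hematopoietic mesoderm. The endoderm range overlapped the YFP+ and the hematopoietic range but not the YFP- range. The log2 differences of endoderm were 0.97 ± 0.54, 1.21 ± 0.55 and 0.55 ± 0.54 against YFP+, YFP- and hematopoietic mesoderm.

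Mttp, the lipid transfer partner of apolipoprotein B, was at 95.3, 28.6 and 40.7 CPM in endoderm. It varied widely in mesoderm, at 0, 15.8 and 12.7 CPM in YFP+ cardiac mesoderm, 0.334, 25.8 and 6.64 CPM in YFP- cardiac mesoderm and 11, 1.04 and 0 CPM in hematopoietic mesoderm. The highest mesoderm library, of the YFP- type, came close to the lowest endoderm library. The log2 differences of endoderm were 2.53 ± 1.77, 2.32 ± 1.76 and 3.77 ± 1.88 against the YFP+, YFP- and hematopoietic types. Mttp shares 457 exonic bases with Trmt10a on the opposite strand, and the strand setting of the counting is not given in the sources used here. Trmt10a itself was at 22.9 to 78.5 CPM in endoderm and cardiac mesoderm and at 19.3 to 97.0 CPM in hematopoietic mesoderm, and its part in the Mttp counts was not tested.

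Afp, the fetal counterpart of albumin, was at 182, 41.6 and 86.5 CPM in endoderm. In the 9 mesoderm libraries it lay between 0 and 0.922 CPM. Every hematopoietic library had 1 read. The groups did not overlap, and the log2 difference of endoderm was 7.45 ± 1.2 against YFP+ cardiac mesoderm, where reads were most frequent. Albumin itself (Alb), the neighbour of Afp on chromosome 5, had 0 reads in all 12 libraries.

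Ttr, the thyroid hormone and retinol-binding protein carrier, was at 166, 72.0 and 99.8 CPM in endoderm. It was at 1.04, 0.182 and 1.84 CPM in YFP+ cardiac mesoderm and at 0.279 to 0.866 CPM in YFP- cardiac mesoderm. In hematopoietic mesoderm it was at 0, 0.518 and 0.419 CPM. Again no mesoderm library approached endoderm, and the log2 difference was 6.76 ± 1.07 against YFP+ and 7.63 ± 1.11 against YFP- cardiac mesoderm.

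Rbp4, whose product delivers retinol in a complex with transthyretin, was at 65.1, 17.4 and 23.9 CPM in endoderm. In mesoderm its reads were gathered in single libraries: 24 reads (4.01 CPM) in the first YFP- library and 34 reads (5.87 CPM) in the second hematopoietic library, against 0 in 4 of the 9. The types did not overlap with endoderm, but these libraries reached 11.3% and 16.6% of its mean. Without that hematopoietic library, the log2 difference of endoderm from hematopoietic mesoderm went from 4.09 to 8.04.

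Trf, the gene of transferrin, was the lowest of the 10 at 5.70, 1.03 and 1.06 CPM in endoderm, from 36, 8 and 9 reads. A single read in a YFP- library was the only one in mesoderm. Trf shares 2108 of its 3320 exonic bases with Gm20425 on the same strand, which had no read in any library. Reads that fall in both genes are left out of the counts, and the part of this in the Trf level was not tested. Trf did not pass the expression filter. Fitted differences of genes with so few mesoderm reads depend on the prior count of the model and are no bounds.

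**Figure D1:**
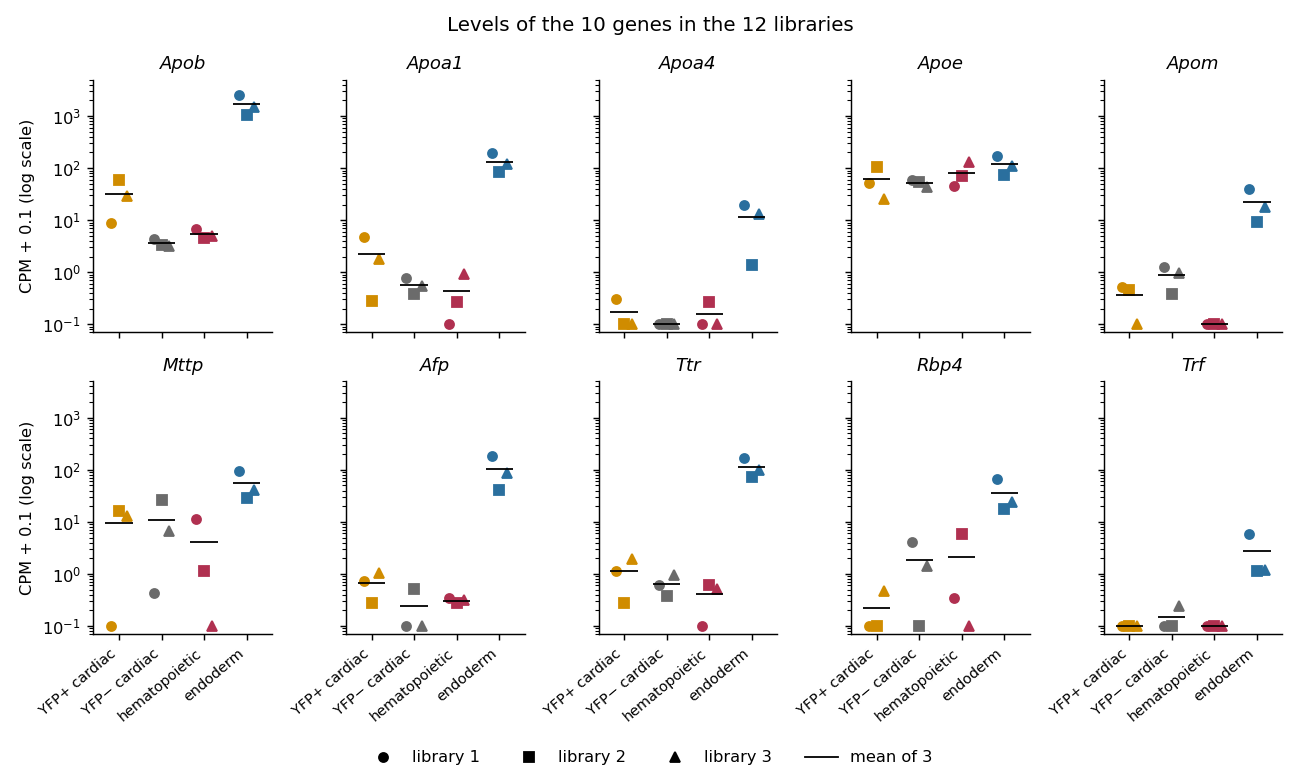
Level of each of the 10 genes in every library, as TMM-scaled CPM plus 0.1 on a log axis, by cell type; marker shapes are the 3 libraries of a type and bars their mean. For 9 genes the endoderm libraries lie above all mesoderm libraries, and for Apoe, at 25.5 to 173 CPM throughout, they do not.

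Per kilobase of exon, which allows genes to be set side by side, the order in endoderm was Apob, Apoa1, Ttr, Apoe, Afp, Rbp4, Apom, Mttp, Apoa4 and Trf. Apob stood at 120 ± 54.6 CPM per kilobase (SD, n = 3), Apoa1 at 108 ± 45.6 and Ttr at 95.1 ± 40.9, and these 3 levels differed by less than their spread. Apoe at 55.6 ± 23.5 and Afp at 30.7 ± 21.3 followed. Trf closed the order at 0.783 ± 0.809, over all its exons, of which 2108 bases are shared with Gm20425. In mesoderm Apoe came first in each type, at 28.4 ± 19.3 CPM per kilobase in YFP+ cardiac mesoderm, 24.1 ± 3.74 in YFP- cardiac mesoderm and 38.0 ± 20.2 in hematopoietic mesoderm. No other of the 10 genes had a mean above 2.32 CPM per kilobase in any mesoderm type.

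In edgeR's quasi-likelihood test over 14170 genes, 8 of the 10 genes were tested and the members past an adjusted p of 0.05 are given only beside the share of all genes. Afp, Apoa1, Apob and Ttr, 4 genes, were called higher in endoderm than in YFP+ cardiac mesoderm, as were 0.586% of all genes, and the same 4 against YFP- cardiac mesoderm, with 0.6% of all genes. Without the first endoderm library, 1 of them, Apob, was called against YFP+ cardiac mesoderm. Apoa1 also lost this call without the third YFP+ or the third endoderm library (edgeR adjusted p = 0.0666 to 0.140 over these 3 fits). Against hematopoietic mesoderm 5 were called, Apom being added, with 3.23% of all genes. Apom lost the call without any 1 endoderm library (edgeR adjusted p = 0.0541 to 0.0834). In limma voom, Apob was not called in any of the 3 comparisons (adjusted p = 0.621, 0.584 and 0.706). None was called lower, where the shares of all genes were 0.953%, 0.706% and 2.42%. Every endoderm library lay above every mesoderm library for 9 of the 10 genes, and for 6.45% of the genes tested. These genes were chosen on these levels, so nothing follows from the counts.

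The level in each mesoderm library was also expressed as a percentage of the mean endoderm level. Over the 10 genes the median share was 0.690 ± 0.490% in YFP+ cardiac mesoderm, 0.972 ± 1.08% in YFP- cardiac mesoderm and 0.194 ± 0.148% in hematopoietic mesoderm (SD over 3 libraries), and these ranges overlapped. The YFP- value rested on 1 library, with medians of 0.472%, 0.228% and 2.22% over the 3 libraries and 0.350% without the third. The hematopoietic value was 0.109% without its second library. Over the 8 genes other than Apoe and Mttp the order of the cardiac fractions turned, at 0.625 ± 0.425% in YFP+ and 0.365 ± 0.173% in YFP- cardiac mesoderm, with libraries that again overlapped. Genes at 0 reads, 2 to 5 of the 10 in a library, entered these medians as 0%. Trf and Apoa4 were at or under the floor of 3 reads in all 9 mesoderm libraries, Afp in 8 and Apom in 7, but Apob and Apoe in none. Depth thus limits these medians, and no order of the types is read from them. Apoe (21.4% to 109%) and Mttp (0% to 47.1%) had the highest shares. The other 8 genes reached at most 0.625% to 16.6% in a given library, and the gene with the highest share was not the same in all of them. It was Apob in the second and the third YFP+ libraries, Apoa1 in the first YFP+ and the third hematopoietic library, Rbp4 in the first YFP- and in 2 hematopoietic libraries, Apom in the second YFP- library and Trf, with its 1 read, in the third.

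**Figure D2:**
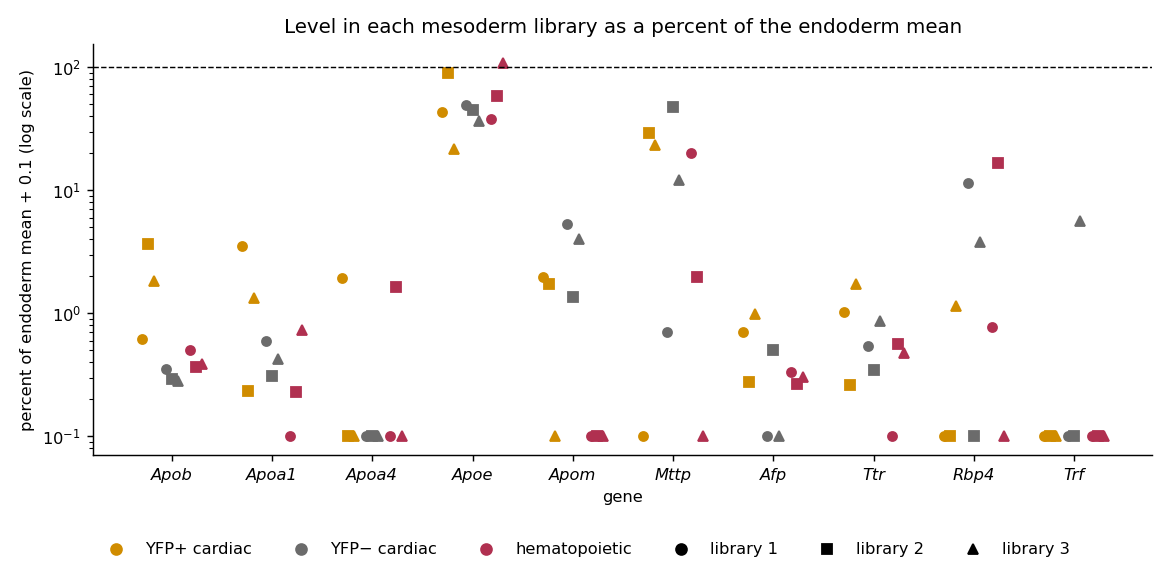
Level of each gene in each of the 9 mesoderm libraries as a percentage of the mean of the 3 endoderm libraries, plus 0.1, on a log axis; colour gives the type, shape the library, and the dashed line 100%. Apoe and most Mttp values lie far above the others, and single libraries stand out for Rbp4 (16.6%) and Apob (3.57%).

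Apob in YFP+ cardiac mesoderm was the clearest difference between the cardiac fractions among the 10 genes. Its shares of the endoderm level were 0.521%, 3.57% and 1.72% in YFP+ cardiac mesoderm, 0.250%, 0.192% and 0.181% in YFP- cardiac mesoderm, and 0.402%, 0.268% and 0.288% in hematopoietic mesoderm. The log2 difference of YFP+ from YFP- cardiac mesoderm was 3.22 ± 0.56. It rested on 42, 328 and 156 reads against 25, 23 and 21. Apob was the only one of the 10 genes with every YFP+ library above every YFP- library, which held for 5.04% of the genes tested. In edgeR no member was called between the cardiac fractions, and 0% of all genes were, with 1062 at an unadjusted p under 0.05 and a lowest adjusted p of 0.479. DESeq2 called 108 genes in this comparison, Apob among them, and limma voom called 0.

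Within the endoderm libraries, Apob, Apoa1 and Ttr kept nearly fixed proportions to each other. There were 12.9, 12.2 and 12.1 Apob reads for each Apoa1 read, 15.1, 14.3 and 14.8 Apob reads for each Ttr read, and 1.17, 1.17 and 1.22 Apoa1 reads for each Ttr read. This did not hold for all of the 10 genes: there were 13.8, 24.7 and 17.1 Apob reads for each Afp read, and the first endoderm library stood above the second by 2.31 times for Ttr, 4.38 times for Afp and 15.1 times for Apoa4. The YFP+ cardiac libraries differed from each other in these proportions. The Apob to Apoa1 ratio was 1.91 (95% exact binomial interval 1.11 to 3.36) in the first, 328 (58.5 to 12990.0) in the second, where Apoa1 had 1 read, and 17.3 (8.90 to 38.6) in the third. The first lay below and the second above the endoderm ratio beyond counting error, and the third did not differ from it beyond counting error. In YFP- cardiac mesoderm the ratio was 6.25, 11.5 and 7, each with an interval that held the endoderm ratios. Hematopoietic libraries gave 26.0 and 5.75, with intervals that also held them, and no ratio where Apoa1 had 0 reads.

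**Figure D3:**
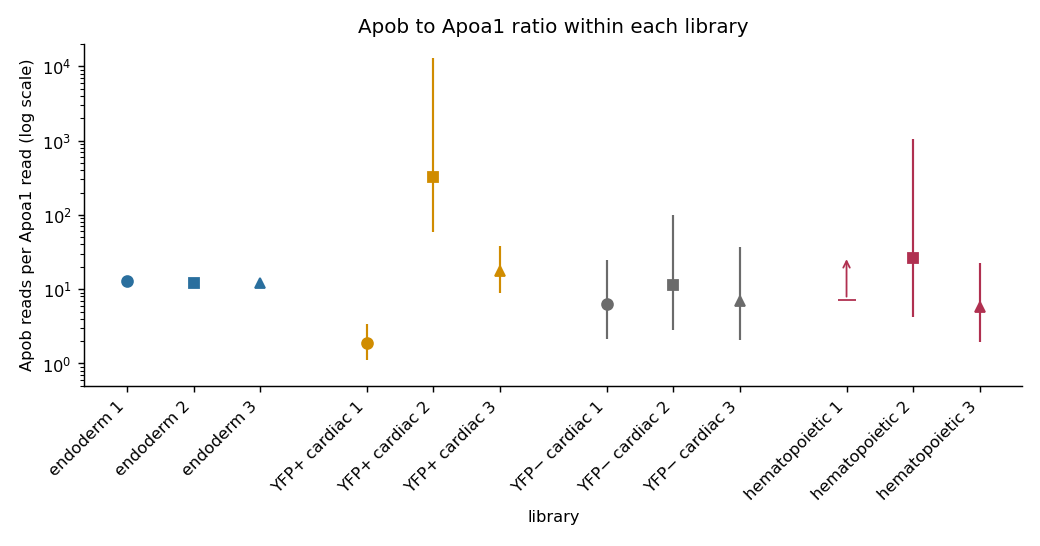
Apob reads per Apoa1 read in each library, on a log axis, with 95% exact binomial intervals that cover counting error only; the arrow is a lower limit for a library with 0 Apoa1 reads. The 3 endoderm libraries lie between 12.1 and 12.9, and the first 2 YFP+ cardiac libraries lie at 1.91 and 328.

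Markers of endoderm were also read in YFP+ cardiac mesoderm, and they differed in which of its libraries was highest. As a share of the endoderm mean, Foxa2 was at 0.722%, 0% and 10.3%, Cer1, which encodes a secreted Nodal and BMP antagonist, at 7.68%, 2.56% and 16.7%, and Spink1 at 1.62%, 1.96% and 8.66%. The third YFP+ library was highest for these 3, whereas Sox17, an endoderm transcription factor, was highest in the first, at 24.8%, 0% and 1.23%. Sox17 was not particular to YFP+ cells, at 0%, 23.7% and 15.6% in the hematopoietic libraries. There Foxa2 was at 0.417%, 0.300% and 0.364%, Cer1 at 1.24%, 0.809% and 0.775%, and Spink1 at 1.64%, 0.506% and 1.02%. In YFP- cardiac mesoderm Foxa2 was at 0% in each library, Cer1 at 0.577%, 1.17% and 0.927%, and Spink1 at 0.817%, 1.09% and 1.55%. Epcam, the endoderm sort gene, was not higher in YFP+ cells. It was at 5.11%, 7.71% and 17.9% in YFP+ and at 16.4%, 11.7% and 19.6% in YFP- cardiac mesoderm. In hematopoietic mesoderm Epcam was at 9.74%, 0.472% and 31.3%. The 8 visceral endoderm markers summed to 10.2%, 11.1% and 8% of their endoderm level over the YFP+ libraries. In YFP- cardiac mesoderm they summed to 7.06% to 7.98%, and in hematopoietic mesoderm to 10.98%, 2.27% and 6.85%. A sum near the highest YFP+ value was thus not particular to YFP+ cells. Most of this visceral sum was Dab2, at 207, 207 and 147 CPM in the YFP+ libraries. The sum was highest in the second YFP+ library, as Apob was, and so was Lrp2, at 3.94, 25.99 and 1.11 CPM. Hnf4a, at 0.446%, 0% and 1.06% of endoderm, and Cubn, at 0.761%, 0.387% and 0.938%, were instead lowest in that library. Lrp2 did not follow Apob in the other mesoderm types, where Apob was at 3.03 to 6.72 CPM. Lrp2 was at 18.7, 11.6 and 32.6 CPM in YFP- cardiac mesoderm and at 52.3, 0 and 15.5 CPM in hematopoietic mesoderm. The 8 definitive endoderm markers summed to 17.1%, 11.9% and 26.7% over the YFP+ libraries and to 9.38% to 15.7% in YFP- cardiac mesoderm. In hematopoietic mesoderm they summed to 8.60%, 4.62% and 13.3%. Most of the YFP+ sum was Cxcr4, a chemokine receptor, at 103, 96.7 and 162 CPM, above its 37.4 to 49.8 CPM in endoderm. The part of these markers in the Apob values was not tested.

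The endoderm libraries differed among themselves in a way that all 10 genes shared. For each of the 10, the first endoderm library was the highest and the second the lowest, an order that held for 17.5% of all genes tested. Over the 8 tested genes the ratio of the first to the second library was 2.85 at the median (2.29 to 4.30), with 1 CPM added to each value, against 1.00 for all genes tested. Among visceral endoderm markers, 5 of 8 had the same order, with a median ratio of 2.46: Cubn was at 1490.2, 307 and 740.0 CPM and Hnf4a at 195, 77.3 and 147 CPM. Among definitive endoderm markers 2 of 7 tested had it, with a median ratio of 1.18, and Foxa2 was at 52.1, 58.5 and 62.0 CPM. Parietal endoderm markers had it in 5 of 8, with a median ratio of 1.85, and cardiac mesoderm markers in 2 of 8, with a median ratio of 2.17. None of the 5 epiblast markers had it. The part of these markers in the spread of the 10 genes was not tested.

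**Figure D4:**
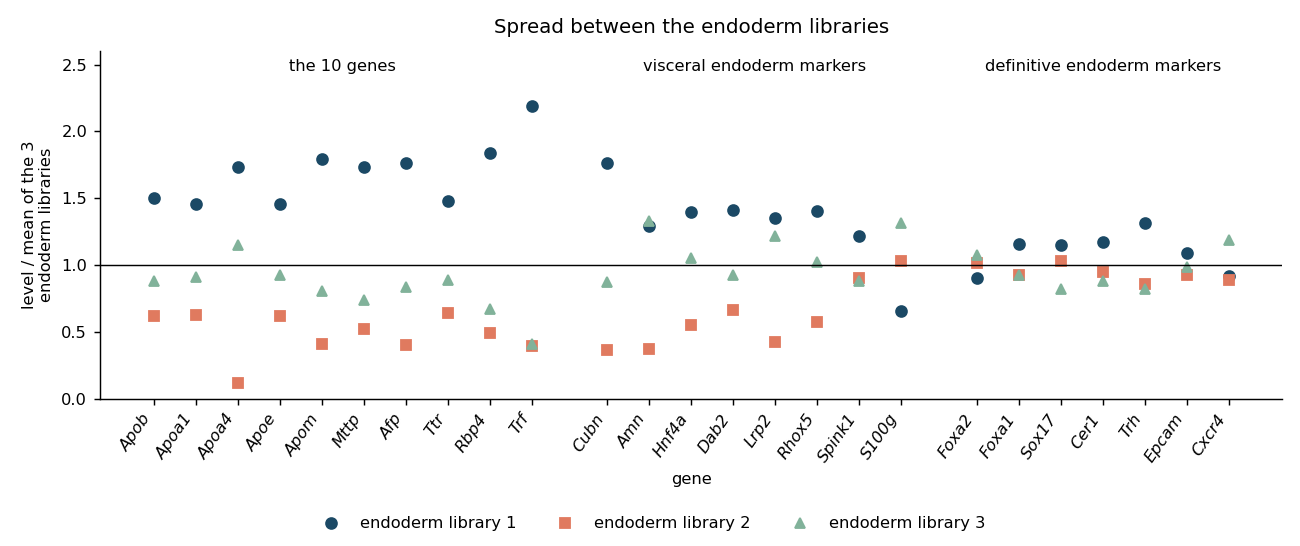
Level of each gene in the 3 endoderm libraries divided by their mean, for the 10 genes, 8 visceral endoderm markers and 7 definitive endoderm markers (Pyy, at 0, is left out). The first library is above and the second below the mean for all 10 genes, as for Cubn and Hnf4a, while Foxa2 and Cer1 lie near the line and S100g is lowest in the first library.

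Across the 12 libraries, the genes most like the members as a set were Pla2g12b, Slco4c1, Cd8a and Sel1l3, with Pearson correlations of 0.989, 0.987, 0.985 and 0.983. Likeness was measured on log2(CPM + 1) against the mean z-score of the 8 members that passed the filter, among 8837 genes of at least 20 CPM in their highest type. Pla2g12b was at 60.0, 16.8 and 46.6 CPM in endoderm and at most 0.738 CPM in mesoderm. These values rest largely on the gap between endoderm and mesoderm. A member's own correlation with the mean of the others was 0.534 for Apoe, 0.632 for Mttp, 0.860 for Rbp4 and 0.927 to 0.985 for the remaining 7.

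Genes that work with these 10 were examined in 6 lists, written from general knowledge with earlier results of these data known. Each list median covers only genes that passed the expression filter. Some passed it through their endoderm counts alone, so nothing is read from these medians. Of 10 other apolipoproteins 2 were tested, Apoc1 and Apoc2, which modulate lipoprotein lipase and particle uptake, and edgeR called neither in any comparison. At an unadjusted p under 0.05, 1 of the 2 passed against each mesoderm type, and DESeq2 called 0, 1 and 1 and limma voom 0, 2 and 1 against YFP+, YFP- and hematopoietic mesoderm. Apoc1 was at 32.8, 14.6 and 19.8 CPM in endoderm and at 0 to 4.18 CPM in mesoderm, and Apoc2 was at 23.6, 3.22 and 2.72 CPM in endoderm with at most 0.208 CPM elsewhere. Apoa5 and Apoc3, which lie beside Apoa1 and Apoa4, stayed at or under 4.27 CPM in every library. Apoa2 reached 4.59 CPM in the first endoderm library and 5.01 CPM in the first YFP- library, with at most 0.258 CPM in the rest.

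Of 16 genes of lipoprotein assembly and secretion 13 were tested. Against hematopoietic mesoderm 2 were higher in endoderm, and against either cardiac fraction edgeR called 0, with 2 at an unadjusted p under 0.05 and 2 called by DESeq2 and by limma voom each. Pla2g12b, a secreted phospholipase A2 family member, rose against hematopoietic mesoderm (edgeR adjusted p = 0.0205), where it had 0 reads, and lost the call without any 1 of the 3 endoderm libraries (adjusted p = 0.0534 to 0.0862). Soat2, which esterifies cholesterol for packaging, was at 59.4, 16.8 and 35.8 CPM in endoderm and 0 to 0.209 CPM in hematopoietic mesoderm (edgeR adjusted p = 0.0318). It lost the call without any 1 endoderm library or without the first or the second hematopoietic library (adjusted p = 0.0599 to 0.121). P4hb, the other subunit of the transfer protein complex, was even across types, at 250 ± 28.2 CPM in endoderm, 290 ± 53.3 and 299 ± 5.21 CPM in YFP+ and YFP- cardiac mesoderm and 303 ± 29.7 CPM in hematopoietic mesoderm. The list's median log2 difference was 0.02, 0.25 and 0.06 against the YFP+, YFP- and hematopoietic types, beside -0.01, -0.01 and 0.07 for all genes.

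Of 20 lipoprotein receptors and plasma lipid enzymes 17 were tested, and 2, 2 and 3 were higher and 1, 1 and 0 lower in endoderm than in YFP+, YFP- and hematopoietic mesoderm. Cubn, which encodes the endocytic receptor cubilin and binds apolipoprotein A1 among its ligands, was at 0.866 to 7.94 CPM in mesoderm and rose by a log2 of 7.17 ± 0.72, 9.70 ± 0.82 and 7.57 ± 0.74 in endoderm. The edgeR adjusted p was 0.000237, 6.13e-05 and 0.000132, and each call held without any 1 library, while limma voom gave 0.630, 0.479 and 0.650. Dab2, its endocytic adaptor, was at 1090, 510.1 and 713 CPM in endoderm and at 40.1 to 207 CPM in mesoderm, with edgeR adjusted p = 0.031, 0.0117 and 0.00425. Against the cardiac fractions it lost the call in 5 and 4 of 12 fits without 1 library, among them the first endoderm library and each library of the cardiac fraction compared (adjusted p = 0.0589 to 0.173); the third endoderm library did so against YFP+. Vldlr, the very-low-density lipoprotein receptor, fell in endoderm, at 5.07, 10.8 and 8.99 CPM against 91.1 to 303 CPM in YFP+ and 89.9 to 157 CPM in YFP- cardiac mesoderm. Its edgeR adjusted p was 0.0238 and 0.0495, lost in 5 and 10 of 12 fits without 1 library (highest adjusted p = 0.167 and 0.256). These were each endoderm library and the first and second YFP+ libraries in the first comparison, and all libraries but the second and the third hematopoietic ones in the other.

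Sorl1, a sorting receptor, rose against hematopoietic mesoderm (edgeR adjusted p = 0.0378). The call was lost without any 1 endoderm library, the second or the third YFP- library or the first or the third hematopoietic library (highest adjusted p = 0.121). It was at 284, 232 and 175 CPM in endoderm and at 0.628 to 25.0 CPM in hematopoietic mesoderm. Lrp2, the megalin partner of cubilin, was at 230.5, 72.7 and 207.5 CPM in endoderm and at 0 to 52.3 CPM in mesoderm. It was not called, with edgeR adjusted p = 0.177, 0.472 and 0.228. The list's median log2 differences were 0.91, 0.13 and 0.63.

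Of 27 other plasma protein genes 10 were tested, and 2 were higher in endoderm than in hematopoietic mesoderm. F5, coagulation factor V, was at 386, 235 and 333 CPM in endoderm and at 1.05 to 28.0 CPM in hematopoietic mesoderm (edgeR adjusted p = 0.0421). The call was lost without any 1 endoderm or YFP- library or the first or the third hematopoietic library (highest adjusted p = 0.127). F5 was also low in the cardiac fractions, at 1.48 to 19.4 CPM in YFP+ and 2.17 to 9.64 CPM in YFP- cardiac mesoderm. Those differences were not called (edgeR adjusted p = 0.0607 and 0.0531). Fgb, the fibrinogen beta chain, was at 17.6, 15.9 and 20.3 CPM in endoderm with 0 reads in hematopoietic mesoderm (edgeR adjusted p = 0.0305, lost without any 1 endoderm library or the first or the third hematopoietic library, highest adjusted p = 0.116). Against the cardiac fractions edgeR called 0 of the 10, with 7 and 5 at an unadjusted p under 0.05, 2 and 2 called by DESeq2 and 5 and 5 by limma voom. The list's median log2 difference was 6.26, 4.21 and 3.27 as fitted, and 3.51, 3.07 and 2.34 with genes at 0 reads in mesoderm set to their bound at the floor. Ambp and Fgg passed the filter with 0 reads in every mesoderm library, while Alb, at 0 reads throughout, did not. The filter thus moves this median towards endoderm, and the bound does not undo that.

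Of 17 iron and retinol uptake genes 14 were tested, and 3 were higher in endoderm than in hematopoietic mesoderm, with list medians of 0.36, 0.17 and 0.05 against the YFP+, YFP- and hematopoietic types. Stra6, which encodes the receptor that takes up retinol from retinol-binding protein 4, was at 39.4, 33.3 and 21.3 CPM in endoderm and at 0 to 0.24 CPM in hematopoietic mesoderm (edgeR adjusted p = 0.00132, kept in 12 of 12 fits without 1 library). Its level in YFP+ cardiac mesoderm, 106, 90.5 and 95.2 CPM, lay above all endoderm libraries, and in YFP- cardiac mesoderm, at 4.51, 15.6 and 3.32 CPM, below them. Neither difference passed (edgeR adjusted p = 0.272 and 0.263). Slc40a1, the iron exporter ferroportin, was at 39.7, 29 and 54.8 CPM against 0 reads (edgeR adjusted p = 0.00813). Tfrc, the transferrin receptor, was at 189 to 379 CPM in every library and differed by less than the spread. Against the cardiac fractions edgeR called 0 of the 14, with 5 and 3 at an unadjusted p under 0.05, 4 and 3 called by DESeq2 and 4 and 4 by limma voom.

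Of 23 transcriptional regulators 16 were tested, and 2, 3 and 4 were higher in endoderm than in YFP+, YFP- and hematopoietic mesoderm. Hnf4a, a nuclear receptor known to drive apolipoprotein genes, was at 195, 77.3 and 147 CPM in endoderm and at most 1.48 CPM in mesoderm, with edgeR adjusted p = 0.00313, 0.00114 and 0.00123, kept without any 1 library. It had the order of the endoderm libraries that the 10 genes had. Foxa2 and Foxa1, forkhead factors, were even among endoderm libraries, at 52.1 to 62.0 and 49.9 to 62.5 CPM. Foxa2 was called against YFP- (edgeR adjusted p = 0.0233) and hematopoietic mesoderm (0.0294), each lost in 6 of 12 fits without 1 library, namely those of the 2 types compared (highest adjusted p = 0.105). Foxa1 was called against hematopoietic mesoderm (edgeR adjusted p = 0.0252, lost without any 1 endoderm library or the first hematopoietic library at adjusted p = 0.0656 to 0.0929). In YFP+ cardiac mesoderm Foxa2 was at 0.415, 0 and 5.90 CPM.

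Gata4, a zinc finger factor of endoderm and heart, fell in endoderm against YFP+ cardiac mesoderm, at 142, 92.9 and 103 CPM against 337, 302 and 431 CPM (log2 difference -1.66 ± 0.31, edgeR adjusted p = 0.0161). The call was lost without the third YFP+ or the second or the third endoderm library (adjusted p = 0.0598 to 0.115). Zhx2 and Zbtb20, which repress Afp in the postnatal liver, were at 10.8 to 23.6 and 14.9 to 36.9 CPM in endoderm. In mesoderm they ranged from 0.628 to 221 and from 2.09 to 119 CPM, with the first YFP+ library highest for both, and neither was called. Between the cardiac fractions edgeR called 0 genes of the 6 lists, with 12 at an unadjusted p under 0.05, 3 called by DESeq2 and 0 by limma voom. The regulator list's median log2 difference was 0.95, 0.91 and 0.84 as fitted, and 0.74 against YFP+ with genes at 0 reads at their bound. Here too the filter bears on the median, as Foxa3 passed it with 0 reads in every mesoderm library.

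**Figure D5:**
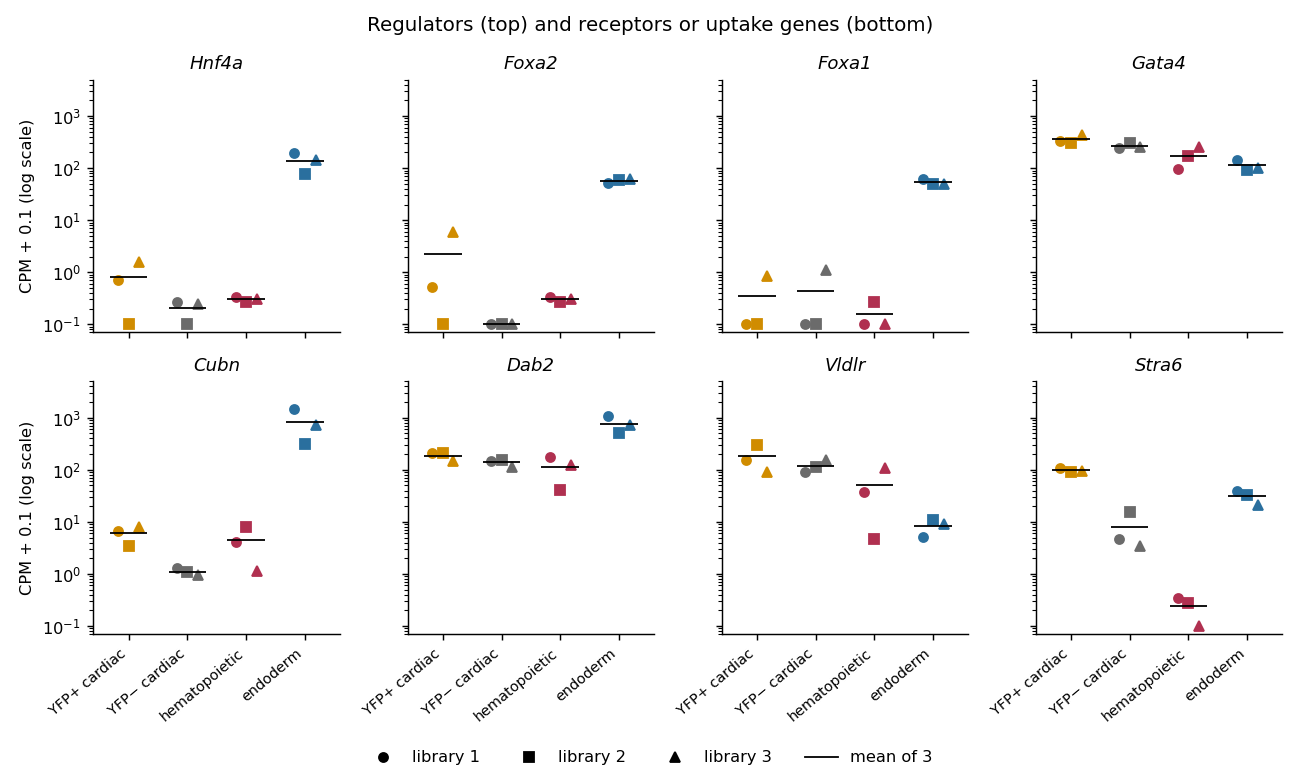
Levels of 4 regulators and 4 receptor or uptake genes in every library, as TMM-scaled CPM plus 0.1 on a log axis, by cell type. Hnf4a and Cubn separate endoderm from all mesoderm libraries as Apob does, Vldlr and Gata4 lie lower in endoderm than in cardiac mesoderm, and Stra6 is highest in YFP+ cardiac mesoderm at 90.5 to 106 CPM.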

How the data were processed

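RNA was measured in 12 libraries, 3 for each of 4 sorted cell types, grouped by the sample titles. Per the labels, RNA was extracted with the Agilent nanoprep kit and amplified with NuGEN Ovation low-input kits. The deposited values are raw read counts per gene, not normalized, from the authors' pipeline. The submitters' processing notes name STAR 2.5.0a, Picard, HTSeq 0.6.0, DESeq2 and the mm10 build, with no role or order. The annotation and strand setting are not given in the sources used here. Reads in no gene (34.5% to 43.6% of those tallied), at more than 1 place (35.1% to 44.8%) or in more than 1 gene were left out of library sizes, and genes took 18.3% to 21.5%. Exon lengths and overlaps came from a GRCm38 annotation.

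Levels are CPM after trimmed-mean (TMM) scaling, given as mean ± SD. Counts were fitted with edgeR 4.0.16 in R 4.3.3: quasi-likelihood test, two-sided, default expression filter (14170 genes kept), 1 coefficient per type, 8 residual degrees of freedom, and Benjamini-Hochberg adjustment over all genes of a comparison, called at an adjusted p under 0.05. A standard error is the log2 fold change divided by the square root of F. Pathway genes named were those called in any comparison, at most 6 a list, plus fixed partners, the sort markers and the 5 genes most like the set, predicted genes passed over; some genes that this rule names or that the counts include are not reported here. The genes and all lists were chosen with earlier results of these data known. Alternatives were RLE scaling, no filter, a minimum mean of 5 CPM, a replicate block, DESeq2 1.42.0, limma 3.58.1 voom with quality weights, only the 2 types compared, and each library left out. The procedures were tested on simulated data.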

Additional observations from a re-analysis of the deposited data

How the results depend on the processing

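Scaling by RLE and a minimum mean of 5 CPM left every count of calls within 1.5 times. Of 312 log2 differences of the 8 tested genes from a mesoderm type under an alternative, 312 kept their sign and 6 moved by more than the spread. The median shares of the endoderm level moved by less than their SD under plain CPM, RLE scaling and a same-numbered endoderm reference.

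Against YFP+, YFP- and hematopoietic mesoderm, 218, 185 and 800 genes were called. DESeq2 called 924, 605 and 1870.0, limma voom 1130.0, 1812 and 1225, and a fit limited to the pair of types 1063, 1360.0 and 1258. In this section, the counts for fits without 1 library cover only libraries of the 2 types compared. Those fits gave 71 to 159, 69 to 100 and 180 to 976. Between the cardiac fractions 0 genes were called, 2 without a filter, 108 in DESeq2 and 0 to 1 without 1 library. The cause of these shifts was not tested.

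Of the 10 genes, 4, 4 and 5 were called. The fit limited to the pair called 7 against YFP-, limma voom 3 against hematopoietic mesoderm, and fits without 1 library 1 to 4 against YFP+. Between the cardiac fractions, where 0 were called, no filter and DESeq2 each called 1, Apob (adjusted p = 0.00259 and 0.000231), and fits without 1 library 0 to 1, Apob being called without the first YFP+ library (adjusted p = 0.0118).

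Of the 113 pathway genes, 6, 6 and 14 were called. No filter called 10 and 13 against YFP+ and YFP-, DESeq2 21, 20 and 22, limma voom 23 and 26, and the fit limited to the pair 23 and 25. Fits without 1 library called 3 to 5, 3 to 4 and 6 to 14. DESeq2 called 3 between the cardiac fractions, against 0.

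With the replicate number as a block, 178, 143 and 545 genes were called, and 0 between the cardiac fractions. The block called 4, 4 and 5 of the 10 genes and 7, 6 and 13 pathway genes. With it F5 was called against YFP+ and YFP- (edgeR adjusted p = 0.0124 and 0.0136), and Fgb against hematopoietic mesoderm (0.0684) and Vldlr against YFP- (0.0863) were not. Deviations from the type mean correlated at 0.0139 on average between same-numbered libraries and at -0.00694 between others, so the libraries share a number and no pairing was assumed. Same-numbered libraries also carry the same date, and what was done on it is not stated.

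Depth limits the genes near 3 reads, and 0 reads in a library allows up to 0.720 CPM. Trf and Apoa4 were not tested, and the exons of both overlap other genes.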
